A study of Mus musculus with 4 samples.

Results

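Melanin is made and kept in melanosomes, and 10 genes of that organelle were followed here across mouse posterior eye sections. Tyr, Tyrp1 and Dct are the melanin-forming enzymes, Pmel forms the inner fibrils, Mlana is needed for Pmel to mature, and Oca2, Slc45a2 and Slc24a5 set the ion balance of the organelle. Gpnmb is a glycoprotein related to Pmel, and Mitf is the transcription factor of pigment cells. The members were taken by their exact symbols from the gene list of the deposited matrices, so they are 10 of 32285 genes. No rule on a measured value chose them, but earlier results of these data were known when they were listed. All 10 had at least 1 unique molecular identifier (UMI, a count of 1 captured RNA molecule).

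The study put cryosections of fresh-frozen posterior eyes of C57BL/6J mice on 4 Visium capture frames, in which RNA is read on a grid of barcoded spots. The design text describes eyes given an AAV2/2 virus that drives Wif1 from the CMV promoter, taken 2 and 4 weeks after injection, and control eyes, with a CMV-IRES-GFP virus as control vector. Every frame carries the same treatment label, Naive+AAV2/2, and a biological replicate number from 1 to 4. The labels do not tie a frame to a virus or a time, so frames are replicates here, no virus or time comparison was made, and the number of eyes or animals in a frame is not given in the sources used here.

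The labels name the tissue retina, all retinal cell types. The frames also held the coat behind the retina, since fibrous genes such as Col1a1 and pigment epithelium genes such as Rpe65 had UMIs in all 4. Frames 1 to 4 held 1201, 1243, 1056 and 1103 spots over tissue, with 895894, 1066633, 885454 and 674029 UMIs and medians of 531, 628, 630.5 and 430 UMIs a spot. Frame 4 was the shallowest. Spots of different frames can carry the same barcode sequence because slides share a design: 121 of 2458 distinct barcodes occurred in all 4 frames. A spot is a small region that can hold several cells of different types. Fewer pigmented cells and less RNA per pigmented cell therefore cannot be told apart. P-values below measure the spread between frames, which may be technical.

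In the posterior eye, melanin lies in the retinal pigment epithelium (RPE), a cell layer behind the photoreceptors that comes from the neural tube, and in the melanocytes of the choroid, which come from the neural crest. Tyr oxidises tyrosine to start melanin synthesis, Dct converts dopachrome, and Tyrp1 acts after it on the eumelanin branch. Mitf binds a short promoter element, the M-box, in the tyrosinase gene family. C57BL/6J is a pigmented strain.

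The 10 genes lie on 8 chromosomes of GRCm38.p6, the mm10 build named in the submitters' processing notes. Tyr and Oca2 are on chromosome 7, Gpnmb and Mitf on 6, Slc24a5 on 2, Tyrp1 on 4, Pmel on 10, Dct on 14, Slc45a2 on 15 and Mlana on 19. The letters TCATGTG, the core of the M-box, were searched on both strands in the 250 bases before each annotated start, with no other motif searched. They occurred in 4 of the 7 members that have a promoter window in the RefSeq table (GRCm38.p6). Of all 32851 windows of that length, 3.25% held them. Tyr had a copy whose first base lies 22 bases before the start, in chr7:87493513-87493762 (minus strand). Tyrp1 had a copy 47 bases before the start, in chr4:80833963-80834212 (plus strand). The annotated start used for Tyrp1 lies inside the span of the gene, which begins at chr4:80834123, and so does the match. Dct had copies 151 bases before the start on the strand of the gene and 232 bases before it on the other strand, in chr14:118052247-118052496 (minus strand). Slc24a5 had a copy 13 bases before the start on the opposite strand, in chr2:125067877-125068126 (plus strand). A match is a description of letters, not a binding site. The 4 windows are shown because they hold the match, with the match in capitals and the start just after the last base:
Tyr: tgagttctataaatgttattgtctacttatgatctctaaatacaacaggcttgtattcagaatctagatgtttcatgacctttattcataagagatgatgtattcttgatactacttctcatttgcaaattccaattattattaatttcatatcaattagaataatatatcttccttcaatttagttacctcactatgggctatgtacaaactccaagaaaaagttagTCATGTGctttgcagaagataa
Tyrp1: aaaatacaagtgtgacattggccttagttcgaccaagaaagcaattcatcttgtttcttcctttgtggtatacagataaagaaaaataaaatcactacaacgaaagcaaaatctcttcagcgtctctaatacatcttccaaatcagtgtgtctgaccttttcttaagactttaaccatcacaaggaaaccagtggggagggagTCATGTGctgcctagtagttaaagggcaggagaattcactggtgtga
Dct: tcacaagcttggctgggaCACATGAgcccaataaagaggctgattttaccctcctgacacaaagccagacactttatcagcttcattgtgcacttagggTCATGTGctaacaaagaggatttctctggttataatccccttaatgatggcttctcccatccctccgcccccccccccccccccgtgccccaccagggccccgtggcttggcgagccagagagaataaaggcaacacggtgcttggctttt
Slc24a5: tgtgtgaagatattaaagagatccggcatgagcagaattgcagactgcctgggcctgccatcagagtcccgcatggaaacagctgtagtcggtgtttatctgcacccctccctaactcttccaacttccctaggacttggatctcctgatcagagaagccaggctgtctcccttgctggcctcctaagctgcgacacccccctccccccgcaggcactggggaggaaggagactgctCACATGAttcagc
The windows of Gpnmb, Mitf and Oca2 did not hold these letters, and Pmel, Mlana and Slc45a2 were not searched.

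Over all spots of a frame, the 10 genes together took 2837, 3431, 3167 and 886 CPM in frames 1 to 4 (the usual scaling of UMIs by the total of the same spots), which rests on 2542, 3660, 2804 and 597 UMIs. Frame 4 lay far below the other 3 frames. Dct had 1372, 1880, 1608 and 365 CPM in frames 1 to 4 and gave 51.1% of the members' 9603 UMIs. Tyrp1 had 766, 796, 766 and 175 CPM and gave 24.3%. These 2 enzymes were the most abundant members by UMI count, while Tyr, the first enzyme of the pathway, had 21.2, 27.2, 32.8 and 16.3 CPM from 88 UMIs in all. The matrix and transport genes lay between: Slc24a5 averaged 159 ± 50.4, Pmel 148 ± 58.7, Oca2 110 ± 63.2 and Mlana 88.8 ± 12.2 CPM (SD, n = 4 frames). Gpnmb averaged 96.5 ± 36.4 CPM. Mitf and Slc45a2 were at the limit of detection, with 65 and 19 UMIs in all 4 frames, or 17.6 ± 7.4 and 5.3 ± 1.7 CPM. CPM is not divided by transcript length, but Visium captures RNA at its poly(A) end, and the order above is one of captured UMIs only.

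**Figure D1:**
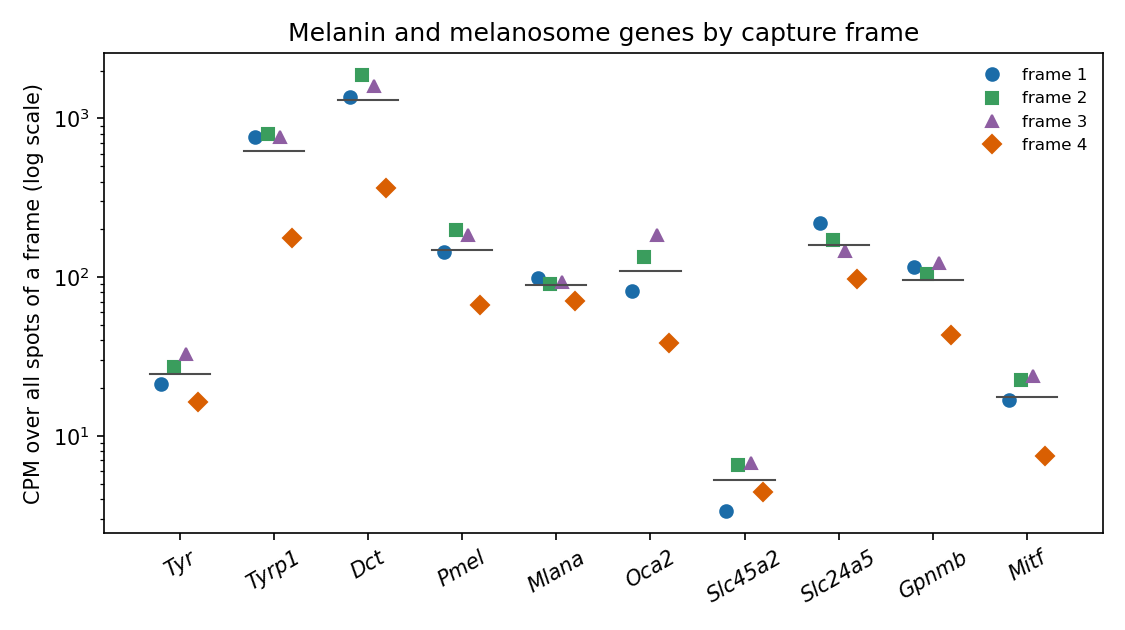
Level of each of the 10 genes in each capture frame, as CPM over all spots on a log axis; symbols are frames and the grey line is the mean of the 4 frames. Dct and Tyrp1 lie highest, and frame 4 is lowest for Dct at 365 CPM and for Tyrp1 at 175 CPM.

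The UMIs were concentrated in few spots. Between 4.08% and 6.06% of a frame's spots held 50% of its member UMIs. A total of 234 spots (5.08% of all) had 10 or more member UMIs and held 53.5% of all member UMIs. Of these spots, 57, 91, 77 and 9 lay in frames 1 to 4.

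To ask whether the members follow the pigment epithelium, spots with at least 1 UMI of Rpe65, Rgr, Lrat or Best1 (RPE-marker spots) were set against spots without any. Rpe65, Rgr and Lrat serve the visual cycle and Best1 is an RPE chloride channel. There were 1172 RPE-marker spots, 192 to 376 a frame, and 3431 spots without. Rgr is also known from Müller glia, and Best1 had only 5 UMIs. Of the 10 members, 5 were higher in RPE-marker spots by edgeR's quasi-likelihood test with frame as a block (Benjamini-Hochberg adjusted p under 0.05), 3 tested members did not pass, and 2 had too few UMIs to be tested. Of all 5942 genes tested, 4.76% passed as higher and 5.89% as lower, and the median log2 fold was 0.67 over the 8 members tested and 0.00 over all genes.

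Among the enzymes, Tyr had 30.7, 44.3, 69.1 and 47.3 CPM in RPE-marker spots of frames 1 to 4, against 18.0, 17.6, 9.29 and 9.14 CPM in spots without. The 2 sets did not overlap. Tyr's log2 fold was 1.78, with an SD of 0.77 over frames (adjusted p = 0.00581, edgeR), from 54 UMIs in RPE-marker spots and 34 in spots without. Tyr cleared the count filter only through its RPE-marker spots, the side where it is high. Its call, counted above, carries that limit. Tyrp1 had 1215, 1053, 1221 and 284 CPM in RPE-marker spots, against 612, 652, 472 and 150 CPM in spots without. Every frame was higher in its RPE-marker spots, and only frame 4 of the RPE-marker spots lay within the other set. Tyrp1's log2 fold was 1.02 ± 0.28 (SD over 4 frames; adjusted p = 2.63e-06, edgeR). Dct had 1684, 1894, 1996 and 520 CPM in RPE-marker spots, against 1265, 1871, 1358 and 329 CPM in spots without. The 2 sets overlapped, and frame 2 was nearly level. Dct's log2 fold was 0.40 ± 0.25 (SD, 4 frames; adjusted p = 0.00817, edgeR), the smallest of the members that passed. Of the Dct UMIs, 61.9% lay outside the RPE-marker spots, where 74.5% of all spots and 2436236 of all 3522010 UMIs also lay.

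Pmel, which forms the fibrils on which melanin is laid down, had 197, 331, 216 and 86.7 CPM in RPE-marker spots, against 124, 123, 162 and 62.1 CPM in spots without. Frames 1 to 3 of the RPE-marker spots lay above all frames of the other set. Its log2 fold was 0.84 ± 0.48 (SD, 4 frames; adjusted p = 0.00845, edgeR). Mlana, a small membrane protein needed for Pmel to mature, had 101, 138, 121 and 15.8 CPM in RPE-marker spots, against 98.8, 64.4, 76.2 and 84.1 CPM in spots without. Frame 4, with 2 UMIs in its RPE-marker spots, went the other way from frames 2 and 3, and frame 1 was level. Mlana did not pass (log2 fold 0.35, adjusted p = 0.543, edgeR).

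Oca2, a melanosome membrane protein that raises the pH inside the organelle, had 206, 216, 245 and 126 CPM in RPE-marker spots, against 38.9, 87.9, 145 and 18.3 CPM in spots without. Frames 1 to 3 of the RPE-marker spots lay above every value of the other set, and frame 4 lay among them. Its log2 fold was 1.57 ± 0.83 (SD, 4 frames; adjusted p = 0.000192, edgeR). Slc24a5, a sodium, potassium and calcium exchanger, had 206, 159, 196 and 126 CPM in RPE-marker spots, against 223, 179, 115 and 91.4 CPM in spots without. The 2 sets overlapped throughout, with 2 frames higher and 2 lower (log2 fold 0.22, adjusted p = 0.566, edgeR). Slc45a2, a transporter of the melanosome, had 14 of its 19 UMIs in RPE-marker spots, 1, 5, 6 and 2 in frames 1 to 4, against 2, 2, 0 and 1 in spots without. That was 12.6 ± 5.76 CPM in RPE-marker spots, against 1.94 ± 1.40 CPM in spots without (SD, n = 4 frames), with no overlap. Its pooled ratio of 6.28 had a 95% exact counting interval of 2.14 to 22.3 and no test.

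Gpnmb, also known from macrophages, had 149, 128, 135 and 71.0 CPM in RPE-marker spots, against 105, 92.3, 113 and 36.6 CPM in spots without. It was higher in all 4 frames and did not pass (log2 fold 0.50, adjusted p = 0.158, edgeR). Mitf had 31 UMIs in RPE-marker spots and 34 in spots without, a pooled ratio of 2.05 (95% exact counting interval 1.22 to 3.43), and was not tested. In frame 2, a spot of 488 UMIs held 7 of the frame's 24 Mitf UMIs.

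RPE-marker spots also held more fibrous UMIs (1528 ± 468 CPM, against 596 ± 137 CPM in spots without) and more photoreceptor UMIs (38337 ± 3141 CPM, against 24289 ± 3745 CPM, SD, n = 4 frames), and the part of either in the result was not tested. Without the frame block no member passed except Tyr (adjusted p 0.372 for Tyrp1, 0.797 for Dct, 0.0520 for Pmel and 0.141 for Oca2, edgeR), Dct also lost its call without frame 1 (0.0698) or frame 3 (0.130) and with no filter on low counts (0.0502), Pmel without frame 2 (0.266) and Tyr without frame 3 (0.113).

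**Figure D2:**
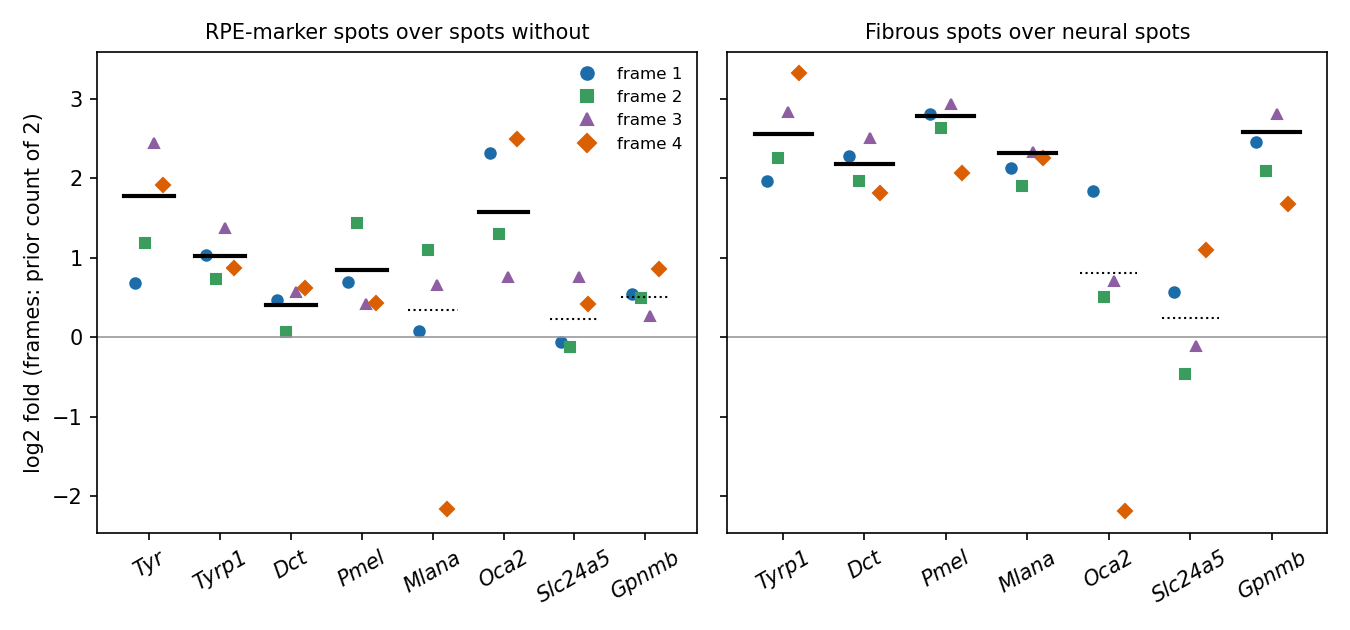
Log2 fold of each tested member in each frame (symbols; prior count of 2) and from the fit (lines; solid and thick where adjusted p was under 0.05, dotted otherwise), for RPE-marker spots over spots without (left) and fibrous spots over neural spots (right). In the left panel Tyr (1.78) and Oca2 (1.57) have the highest fitted folds and Dct (0.40) the lowest of those that passed; in the right panel Oca2 (0.81) and Slc24a5 (0.25) lie apart from the other 5 members, at 2.18 to 2.78.

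The second grouping used collagen and matrix genes, none of them a member. Fibrous spots had at least 3 UMIs of 8 fibrous markers (Col1a1, Col1a2, Col3a1, Dcn, Lum, Fmod, Ogn and Pcolce) at a share of 2 or more times the frame mean. Neural spots had at most 1 such UMI and a share of photoreceptor or inner retina markers at or above the frame mean. There were 247 fibrous spots, 41 to 74 a frame, and 2756 neural spots. In fibrous spots 5 of the 10 members were higher, where 6.7% of all 4105 genes tested passed as higher and 6.77% as lower. Oca2 and Slc24a5 did not pass, and Tyr, Slc45a2 and Mitf had too few UMIs to be tested. The median log2 fold was 2.32 over the 7 members tested and -0.03 over all genes. Mlana and Gpnmb cleared the count filter through their fibrous values, the side where they are high. The count of members called carries that limit.

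Dct had 2045, 2623, 3486 and 671 CPM in fibrous spots of frames 1 to 4, against 421, 687, 614 and 179 CPM in neural spots. Only frame 4 of the fibrous spots fell within the neural values. The log2 fold was 2.18 ± 0.31 (SD, 4 frames; adjusted p = 5.08e-14, edgeR). Tyrp1 had 962, 1395, 1911 and 711 CPM in fibrous spots, against 244, 296, 265 and 62.6 CPM in neural spots. The 2 sets did not overlap, and the log2 fold was 2.56 ± 0.60 (SD, 4 frames; adjusted p = 8.87e-13, edgeR). Pmel had 401, 477, 606 and 217 CPM in fibrous spots, against 52.3, 73.5, 74.3 and 44.7 CPM in neural spots. These did not overlap either, and its log2 fold of 2.78 ± 0.38 was the highest among the 7 members tested (SD, 4 frames; adjusted p = 2.63e-10, edgeR).

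Mlana had 174, 177, 175 and 158 CPM in fibrous spots, against 34.9, 43.8, 30.1 and 26.8 CPM in neural spots. The fibrous values were nearly the same in all 4 frames, frame 4 included, and did not overlap the neural ones. Its log2 fold was 2.32 ± 0.19 (SD, 4 frames; adjusted p = 2.74e-05, edgeR). Gpnmb had 187, 150, 310 and 59.3 CPM in fibrous spots, against 29.1, 31.3, 38.9 and 13.4 CPM in neural spots. All frames of the fibrous spots were above all frames of the neural spots (log2 fold 2.59, adjusted p = 1.01e-05, edgeR).

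Oca2 had 120, 115, 256 and 0 CPM in fibrous spots, against 29.1, 81.4, 156 and 22.4 CPM in neural spots. The sets overlapped, and frame 4 had no Oca2 UMI among the 50633 UMIs of its fibrous spots. Oca2 did not pass (log2 fold 0.81, adjusted p = 0.187, edgeR). Slc24a5 had 334, 124, 148 and 217 CPM in fibrous spots, against 227, 177, 161 and 94.0 CPM in neural spots. It was higher in 2 frames and lower in 2 and did not pass (log2 fold 0.25, adjusted p = 0.648, edgeR). Tyr had 8 UMIs in fibrous spots and 31 in neural spots, Slc45a2 had 5 and 4, and Mitf had 8 and 38.

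Fibrous spots were not free of RPE, since 144 of the 247 also held an RPE-marker UMI. Other cell types moved with the fibrous class too: the macrophage and microglia list took 706 ± 149 CPM in fibrous spots, against 233 ± 20.9 CPM in neural spots (SD, n = 4 frames). With all RPE-marker spots left out of both classes, Tyrp1, Dct, Pmel, Mlana and Gpnmb still passed (edgeR). This does not take out all RPE RNA. The fibrous spots that remain had UMIs of all 9 further RPE genes, which classed no spot. Only Dct lost its call under an alternative, at adjusted p = 0.0599 without the frame block.

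A further comparison set 1028 RPE-marker spots outside the fibrous class against 103 fibrous spots without any RPE-marker UMI. They are called coat classes for their markers only, since many of the RPE-marker spots were also neural spots. With RPE-marker spots left out, 594, 561, 431 and 559 of the 703, 754, 621 and 678 neural spots of frames 1 to 4 remained. The part of neural RNA in this comparison was not tested. The fibrous set had only 21 to 29 spots a frame. Of the 10 members, 5 had enough UMIs to be tested and none passed by edgeR, where 1.75% of 1088 genes passed in either direction (0.368% higher, 1.38% lower), 146 genes had an unadjusted p under 0.05, 3 of them members, and DESeq2 passed none of the 5 either. Dct had 1549, 1652, 1819 and 528 CPM in the RPE-marker spots, against 1791, 2394, 3753 and 806 CPM in the fibrous spots. Each frame had more Dct in its fibrous spots, and the sets overlapped (log2 fold -0.63, adjusted p = 0.176, edgeR). Tyrp1 had 1248, 911, 1042 and 255 CPM in the RPE-marker spots, against 724, 931, 1117 and 906 CPM in the fibrous spots (log2 fold -0.26, adjusted p = 0.786, edgeR). Tyrp1 in the fibrous spots was at 906 CPM in frame 4, where the RPE-marker spots were lowest. That value leans on 1 spot of 1535 UMIs, which held 14 of the frame's 118 Tyrp1 UMIs. These fibrous spots of frame 4 had 29789 UMIs in all.

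Pmel had 145, 259, 180 and 66.0 CPM in the RPE-marker spots, against 419, 133, 775 and 235 CPM in the fibrous spots. Frames 1, 3 and 4 had more in the fibrous spots and frame 2 had less, there from 3 UMIs (log2 fold -1.30, adjusted p = 0.209, edgeR). Without frame 2 it passed (adjusted p = 0.00963). Oca2 leaned the other way, with 212, 239, 239 and 151 CPM in the RPE-marker spots, against 0, 0, 217 and 0 CPM in the fibrous spots. Oca2 UMIs were absent from these fibrous spots in 3 frames, and the 7 in frame 3 brought that frame level. The log2 fold was 1.90 (adjusted p = 0.221, edgeR). Without frame 3 Oca2 passed (adjusted p = 0.00411), and its fitted fold then rests on a fibrous side at 0 and is not a size.

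Slc24a5, the fifth member tested, had 166 ± 44.0 CPM in the RPE-marker spots, against 226 ± 161 CPM in the fibrous spots (SD, n = 4 frames; log2 fold -0.39, adjusted p = 0.770, edgeR). The other 5 members had too few UMIs in these spots for a test. Mlana had 78.0, 123, 118 and 18.9 CPM in the RPE-marker spots, against 152, 133, 217 and 269 CPM in the fibrous spots, and the sets did not overlap. Gpnmb had 118 ± 24.7 CPM in the RPE-marker spots, against 216 ± 136 CPM in the fibrous spots (SD, n = 4 frames). Slc45a2 had 9 UMIs in the RPE-marker spots and 0 in the fibrous spots, Tyr had 48 and 2, and Mitf had 26 and 3. A count of 0 in the 110822 UMIs of the fibrous spots allows up to 27.1 CPM. Markers of neural crest melanocytes were sparse in the fibrous spots without RPE-marker UMIs: Sox10, Kit and Mc1r were at 0, and Ednrb and Mlph had 47.8 ± 27.4 and 47.2 ± 37.6 CPM (SD, n = 4 frames).

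Within the neural retina, neural spots were split by whether photoreceptor or inner retina markers lay further above their frame mean, giving 1493 photoreceptor-type and 1263 inner-type spots. RPE lies against the photoreceptors. In photoreceptor-type spots 5 of the 10 members were higher, where 25% of all 3956 genes tested passed as higher and 53.4% in either direction, and 4 were not tested. Tyrp1 had 359, 484, 384 and 76.1 CPM in photoreceptor-type spots, against 151, 125, 116 and 49.2 CPM in inner-type spots (log2 fold 1.67, adjusted p = 9.5e-07, edgeR). Dct had 636, 1044, 828 and 224 CPM in photoreceptor-type spots, against 246, 364, 344 and 134 CPM in inner-type spots (log2 fold 1.43, adjusted p = 7.81e-08, edgeR). For both enzymes every frame was higher in its photoreceptor-type spots, and only frame 4 overlapped the other set.

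Mlana (log2 fold 1.30, adjusted p = 0.0213), Oca2 (1.17, adjusted p = 0.0179) and Pmel (0.92, adjusted p = 0.0375, edgeR) also passed, each higher in 3 of 4 frames. These calls were less stable: Mlana lost its call with DESeq2 (adjusted p = 0.0731) and without frame 4 (0.0609), Oca2 without the frame block (0.436), and Pmel with DESeq2 (0.148) and without frame 1 (0.120) or frame 2 (0.343). Oca2 had 38.9, 148, 146 and 35.8 CPM in photoreceptor-type spots, against 21.1, 20.9, 168 and 8.95 CPM in inner-type spots. The value of 168 CPM in frame 3 came largely from a spot of 702 UMIs that held 29 Oca2 UMIs. Without that spot, frame 3 had 52.1 CPM in inner-type spots and the log2 fold of Oca2 was 1.97 (adjusted p = 0.000101, edgeR, chosen after seeing the data). RPE rule markers moved with this split, at 1313 ± 564 CPM in photoreceptor-type spots, against 149 ± 59.4 CPM in inner-type spots (SD, n = 4 frames). With RPE-marker spots left out of both classes, Tyrp1 and Dct kept their calls and Pmel did not (adjusted p = 0.263, edgeR). Some RPE RNA can remain there, since spots without RPE-marker UMIs had UMIs of all 9 RPE genes that classed no spot. Slc24a5 had 166 ± 77.2 CPM in photoreceptor-type spots, against 164 ± 34.9 CPM in inner-type spots (SD, n = 4 frames), and did not pass (log2 fold 0.13, adjusted p = 0.669, edgeR).

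The share of spots with a UMI gave the same order for the main enzymes. Dct had a UMI in 519 of 1172 RPE-marker spots (44.3%, 95% exact Clopper-Pearson interval 41.4 to 47.2%) and in 140 of 247 fibrous spots (56.7%), against 582 of 2756 neural spots (21.1%). The median depth of a spot was 389.5 to 744.5 UMIs over frames in RPE-marker spots and 820 to 1404.5 UMIs in fibrous spots, against 489 to 704 UMIs in neural spots. With every spot thinned to 300 UMIs and shallower ones left out (254 RPE-marker, 28 fibrous and 609 neural spots), the shares of Dct were 29.6% and 34.2%, against 11.3%. Slc24a5 differed: at 300 UMIs its share was 4.14% of RPE-marker spots and 4.11% of fibrous spots, against 4.75% of neural spots, so at or below the neural share. Intervals cover counting error only.

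Spots in no class had the highest mean summed level of the members over the 4 frames, with Dct as the main part. They held no RPE-marker UMI and were neither fibrous nor neural. This class is left over from the other rules and was described after its values were seen, so it carries no test. It had 1183 spots and was shallow, with a median of 279 to 456 UMIs a spot over frames. Of its spots, 520 had under 300 UMIs, against 254 of the 1172 RPE-marker spots. A shallow spot can more easily miss a marker UMI, and the part of depth was not tested. The 10 genes took 5554, 8720, 5034 and 1492 CPM in spots in no class in frames 1 to 4, against 3815, 4016, 4246 and 1301 CPM in RPE-marker spots. Each frame was higher in its spots in no class than in its RPE-marker spots. Fibrous spots took 4291, 5104, 6985 and 2113 CPM, so they were above the spots in no class in frames 3 and 4. By gene, Pmel averaged 231 ± 120 CPM in spots in no class, against 425 ± 162 CPM in fibrous spots, and Tyrp1 1203 ± 689 CPM, against 1245 ± 526 CPM (SD, n = 4 frames). Dct alone had 3011, 5570, 2965 and 729 CPM there, against 1684, 1894, 1996 and 520 CPM in RPE-marker spots. Of all Dct UMIs, 44.0% lay in these spots, against 38.1% in RPE-marker spots.

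The 9 RPE genes that classed no spot, among them Ttr, Rdh5 and Rlbp1, ran the opposite way. The class leaves out every spot with an RPE-marker UMI and every neural spot. Lower RPE and photoreceptor levels there were thus set in part by the class rules. The 9 RPE genes took 967, 1138, 988 and 777 CPM in spots in no class, against 3157, 6038, 4070 and 3130 CPM in RPE-marker spots, and the 2 sets did not overlap. Photoreceptor markers took 10642 ± 3009 CPM in spots in no class, against 38337 ± 3141 CPM in RPE-marker spots (SD, n = 4 frames). The macrophage and microglia list took 857 ± 131 CPM there, against 386 ± 78.1 CPM, and the Müller glia list 2620 ± 272 CPM, against 1568 ± 61.1 CPM. Schwann and myelin genes took 85.7, 3869, 23485 and 25988 CPM in the class in frames 1 to 4, so the class did not hold the same tissue in every frame. The part of these lists in the member level was not tested.

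The contrast was larger in the spots richest in pigment genes. Of the 234 spots with 10 or more member UMIs, 96 were in no class, with 29, 39, 23 and 5 in frames 1 to 4, and 115 were RPE-marker spots, with 23, 45, 46 and 1. Dct took 15997 CPM in the 96 spots in no class, against 6155 CPM in the 115 RPE-marker spots. The unused RPE genes took 833 CPM in the 96 spots, against 6386 CPM in the 115. Trpm1, a channel of melanocytes and bipolar cells, took 922 CPM in the 96 spots, against 287 CPM in the 115. The macrophage and microglia list took 1974 CPM in the 96 spots, against 773 CPM in the 115. These are pooled over frames with no SD, and the spots were picked for their member UMIs. Of the 5 melanocyte or neural crest genes, Mc1r was at 0 in both spots in no class and RPE-marker spots, and the list took 99.2 CPM in the 96 spots, against 193 CPM in the 115.

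**Figure D3:**
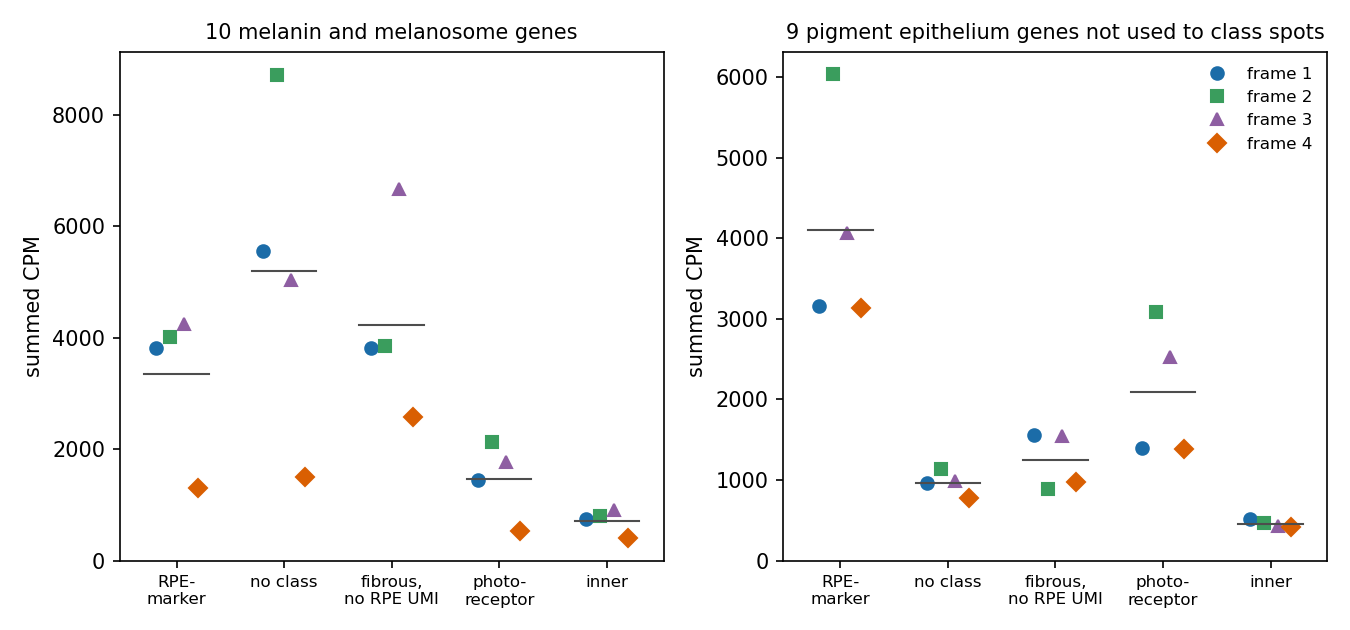
Summed CPM of the 10 melanin and melanosome genes (left) and of 9 RPE genes that classed no spot (right) by spot class and frame; symbols are frames, grey lines are means of 4 frames, and RPE-marker spots overlap with the neural classes. The members have their highest mean in spots in no class, at 5200 CPM, though fibrous spots without RPE-marker UMIs are higher in frames 3 and 4, and there the RPE genes average 968 CPM against 4099 CPM in RPE-marker spots.

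The make-up of the member UMIs also differed between classes. The ratio of Oca2 to Dct UMIs was 0.122, 0.114, 0.123 and 0.242 in RPE-marker spots of frames 1 to 4, against 0.0253, 0.0413, 0.0419 and 0.0667 in spots in no class. The 2 sets did not overlap. The ratio of Tyrp1 to Dct was 0.721, 0.556, 0.612 and 0.545 in RPE-marker spots, against 0.492, 0.343, 0.384 and 0.390 in spots in no class. These did not overlap either. The ratio of Pmel to Dct was 0.142 ± 0.0338 in RPE-marker spots, against 0.0803 ± 0.0132 in spots in no class (SD, n = 4 frames), and its ranges did not overlap. Against spots in no class, Dct thus took less relative to each of the 3 genes in RPE-marker spots, and no test was made because the class was described with its values known. Other classes did not all follow: the ratio of Pmel to Dct was 0.197 ± 0.101 in fibrous spots without RPE-marker UMIs, and that of Oca2 to Dct was 0.142 ± 0.0788 in neural spots.

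**Figure D4:**
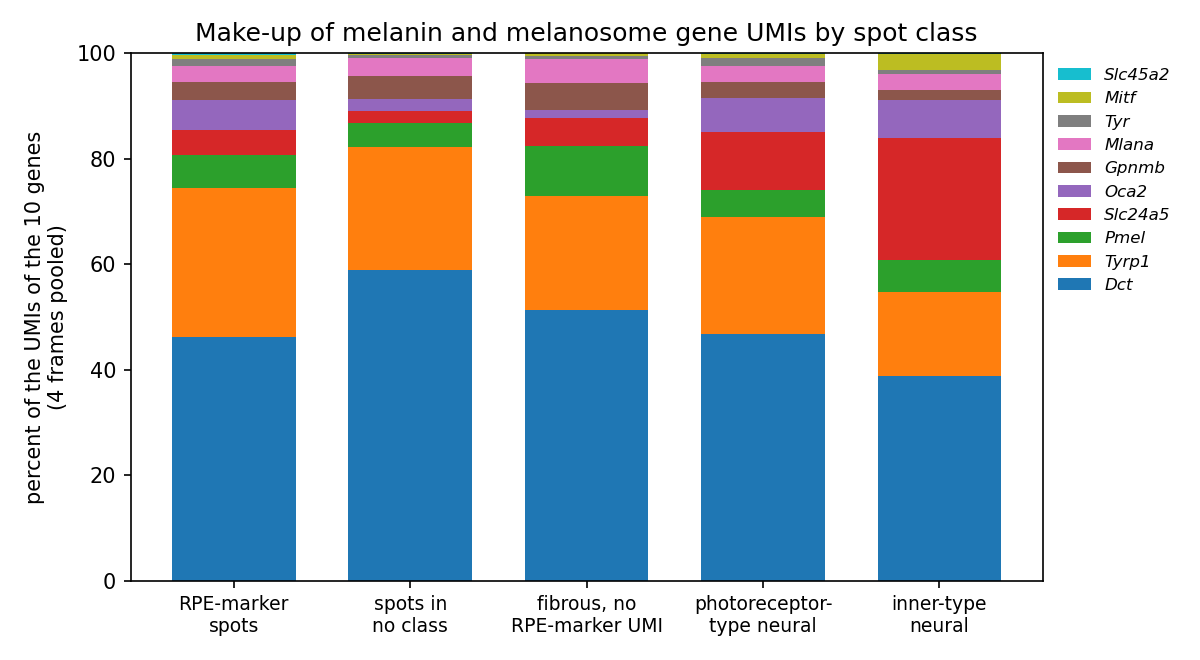
Percent of the members' UMIs given by each of the 10 genes in 5 spot classes, with the 4 frames pooled; bars are stacked to 100%, and RPE-marker spots overlap with the neural classes. Dct takes the most in every class, and Slc24a5 takes a larger part in the neural classes than in the others.

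Slc24a5 passed in none of the 4 comparisons (edgeR; lowest unadjusted p 0.277). Its mean was 172 CPM in RPE-marker spots, 206 in fibrous spots, 165 in neural spots and 120 in spots in no class, while Dct ranged from 475 CPM in neural spots to 3069 CPM in spots in no class. Slc24a5 (chr2:125068127-125088677) overlaps Myef2 (chr2:125080975-125123660) over 7703 bases. Myef2 encodes a nucleic acid binding protein. It had 189, 149, 164 and 126 CPM in RPE-marker spots, against 213, 179, 165 and 76.8 CPM in spots without. Its means there were 157 CPM against 158 CPM, where Slc24a5 had 172 CPM against 152 CPM. In fibrous spots Myef2 had 144 ± 38.0 CPM, against 176 ± 57.8 CPM in neural spots (SD, n = 4 frames). Slc24a5 leaned the other way there, with 206 CPM against 165 CPM. Neither gene passed in these comparisons (edgeR). Over 20 points (5 spot classes in 4 frames, which share libraries and depth), Slc24a5 had a Pearson r of 0.72 with Myef2 and of 0.04 with Dct, given as a description. Whether counting used strand is not given in the sources used here, and the part of reads over the shared stretch in either count was not tested.

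**Figure D5:**
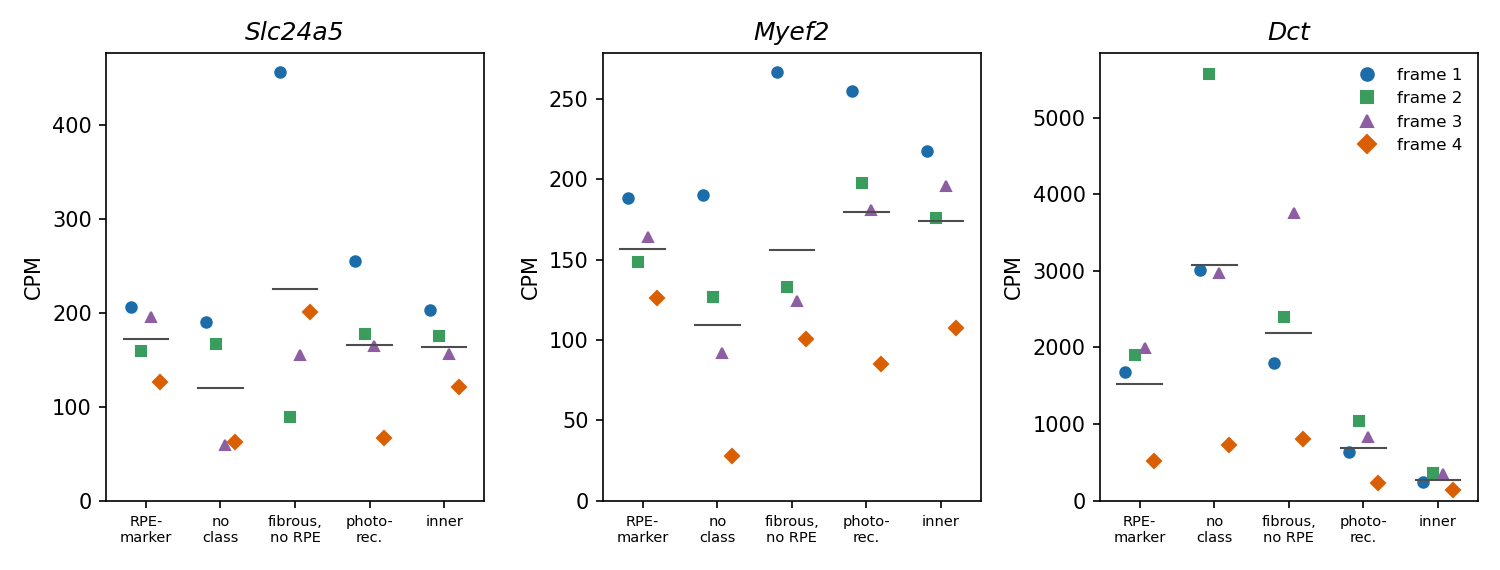
CPM of Slc24a5, of its overlapping neighbour Myef2 and of Dct by spot class (symbols are frames, grey lines means of 4 frames; each panel has its own axis from 0). The class means of Slc24a5 lie between 120 and 226 CPM and those of Myef2 between 109 and 180 CPM, whereas Dct runs between 272 CPM in inner-type neural spots and 3069 CPM in spots in no class.

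Frame 4 was low in most pigment genes, and the summed RPE lists were lower there too. Among single RPE genes, Rgr, Lrat and Ttr were lower in frame 4 than the mean of frames 1 to 3, and Rpe65 was not. Over all spots Rpe65 had 114 CPM in frame 4, against a mean of 114 CPM in frames 1 to 3. In RPE-marker spots it had 607 CPM, against 336 CPM. Over all spots the 9 RPE genes that classed no spot took 1148 CPM in frame 4, against 1444, 2635 and 2083 CPM in frames 1 to 3, and the 4 genes of the class rule took 585 CPM, against 760, 1568 and 1321 CPM. Frame 4 was the lowest for both lists. In RPE-marker spots the 10 genes took 1301 CPM in frame 4, against 3815, 4016 and 4246 CPM in frames 1 to 3. The 9 RPE genes took 3130 CPM there in frame 4, against 3157, 6038 and 4070 CPM in frames 1 to 3, close to frame 1. Not every member was low in every class: in RPE-marker spots Tyr had 47.3 CPM in frame 4, against a mean of 48.0 CPM in frames 1 to 3, while Tyrp1 had 284 CPM against 1163 CPM and Dct 520 CPM against 1858 CPM. The Tyr value rests on few UMIs: frame 4 held 11 in all, 3 of them in 1 RPE-marker spot of 535 UMIs. Over all spots Tyr was lower in frame 4, at 16.3 CPM against a mean of 27.0 CPM. Mlana in spots in no class had 187 CPM in frame 4, against a mean of 188 CPM in frames 1 to 3. The labels give frame 4 no condition of its own, and what sets it apart was not tested.

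Other genes of the pathway were taken from 4 lists of 51 genes. Against spots without RPE-marker UMIs, RPE-marker spots had 5 of 21 tested genes higher and 0 lower (edgeR, 16 not passing), against 4.76% higher and 5.89% lower over all genes tested. The transcription factor Otx2, an RPE and photoreceptor regulator, had 202, 167, 242 and 284 CPM in RPE-marker spots, against 105, 98.1, 130 and 122 CPM in spots without (log2 fold 0.96, adjusted p = 0.000875, edgeR). Rab27a, which tethers melanosomes for transport, had 57.0, 138, 101 and 39.4 CPM in RPE-marker spots, against 44.9, 39.5, 18.6 and 14.6 CPM in spots without (log2 fold 1.55, adjusted p = 0.00247, edgeR). For Otx2 the sets did not overlap, and for Rab27a only frame 4 did. Tmem98 (log2 fold 1.60), the protease Ctsd (0.81) and the tetraspanin Cd63 (0.74), which acts in sorting of Pmel, also passed.

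In fibrous spots, 7 of 17 tested genes of these lists were higher than in neural spots and 0 were lower (edgeR, 10 not passing), against 6.7% higher and 6.77% lower over all genes tested. The melanosome membrane and lumen list has 11 genes, and all 4 that were tested passed. Tspan10 and Trpm1 cleared the count filter only through their fibrous values, so this count was set in part by the filter. Tspan10, a tetraspanin, had 40.1, 53.0, 53.8 and 59.3 CPM in fibrous spots, against 7.75, 6.26, 3.54 and 4.47 CPM in neural spots (log2 fold 3.12, adjusted p = 1.36e-05, edgeR). Its frame 4 value in fibrous spots rests on few UMIs, as those spots held 50633 UMIs of all genes. Trpm1 had 66.8, 132, 215 and 59.3 CPM in fibrous spots, against 33.0, 31.3, 24.8 and 22.4 CPM in neural spots (log2 fold 2.03, adjusted p = 0.00238, edgeR). The sets did not overlap for either gene. Cd63 (log2 fold 1.89), Ednrb, the endothelin receptor of melanocytes (1.78), Ctsd (1.62) and the lysosomal Lamp2 (1.34) also passed. Otx2 did not pass there (log2 fold 0.17, adjusted p = 0.794, edgeR), and whether it differs between the 2 comparisons was not tested.

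The cargo sorting list, which holds the Hermansky-Pudlak, BLOC and AP3 subunits that deliver enzymes to melanosomes, had 0 of 7 tested genes passing for RPE-marker spots and 0 of 5 for fibrous spots (edgeR). Bloc1s1, a BLOC subunit, came nearest for RPE-marker spots (log2 fold 0.80, unadjusted p = 0.0411, adjusted p = 0.189), and Lyst also had an unadjusted p under 0.05 (0.0475). Between the coat classes 4 genes of the 51 were tested and none passed (edgeR). In photoreceptor-type against inner-type neural spots, 4 of 11 were higher and 2 lower, against 25% higher and 28.4% lower over all genes tested: Otx2 was higher (log2 fold 2.14), as was Mreg, a melanosome transport protein (1.04), and Myo5a, the motor that carries melanosomes and also works in neurons, was lower (-1.59, adjusted p = 6.18e-05, edgeR).

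By likeness, the summed members were set against every other gene with at least 200 UMIs over 20 points (5 spot classes in 4 frames). Clu, a secreted chaperone, had the highest Pearson r at 0.87, followed by Bace2 (0.86), Rps19 (0.86), Pdpn (0.86) and Fmo1 (0.86). Bace2 is a protease known to cut Pmel in pigment cells, and Pdpn is a membrane mucin. Of 2659 such genes, 0.414% had an r over 0.8. Among the members themselves, Dct (0.99) and Tyrp1 (0.98) had the highest r with the sum, of which they are the main part, and Mitf (0.16) had the lowest. The points share libraries and depth, and the values are descriptions.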

How the data were processed

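The deposited matrices hold counts, whole numbers of UMIs per gene and spot, per the file headers, which name Space Ranger 2.0.0. The build, mm10, comes from the submitters' processing notes, and no source used here gives the aligner's settings. Deposited images and spot positions were not used, as the position files carry no barcodes. All 4603 spots over tissue entered, with 3522010 UMIs.

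Spots were classed from 34 marker genes, none a member. UMIs were summed per frame and class, so n is the number of frames, and each frame needed at least 10 spots in both classes. These markers entered neither library sizes nor tests. The test was edgeR 4.0.16 (robust quasi-likelihood, frame as block, filterByExpr with a minimum count of 10, TMM, Benjamini-Hochberg over all genes tested, limit 0.05) in R 4.3.3, with DESeq2 1.42.0 as an alternative. Per-frame folds use a prior count of 2. Both classes of a frame come from the same section set, which is where the pairing comes from. The correlation of their leftover values within a frame was 0.0530 to 0.180. The test was tested on simulated data with 200 changed genes: for RPE-marker spots it recovered 82% of 4-fold and 64% of 2-fold changes, for fibrous spots 79% and 37%, for the 2 coat classes 73% and 50%, and for the neural classes 86% and 61%. The simulation gave every gene the same dispersion and each changed gene the same fold in every frame. The members' folds varied between frames, so these rates are not the power for the members.

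Alternatives covered class thresholds, markers, thinning, scaling, the filter, the block and each frame left out. Named genes were the 10 members, up to 3 genes a pathway list with the lowest p in a comparison, 5 genes by likeness, and markers. Myef2 was chosen after its values were seen. The members and lists were chosen with earlier results of these data known.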

Additional observations from a re-analysis of the deposited data

Results flagged for a closer look

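Values were checked in 99 groups of 4 frames with at least 20 UMIs, with Dixon's test at its 95% limit for 4 samples, and 5 had a frame far from the others. Chance gives about 1 in 20 such groups. Frame 4 was the one apart in 4 of the 5. Over all spots, Tyrp1 had 175 CPM in frame 4, against 766 to 796 CPM in the others. All 10 members took 1301 CPM in the RPE-marker spots of frame 4, against 3815 to 4246 CPM in the others. In RPE-marker spots outside the fibrous class they took 1274 CPM in frame 4, against 3583 to 3835 CPM. Mlana had 158 CPM in the fibrous spots of frame 4, against 174 to 177 CPM, a small difference from 8 UMIs. Oca2 had 168 CPM in inner-type neural spots of frame 3, against 8.95 to 21.1 CPM in the others. There a spot held 29 of the 42 Oca2 UMIs, and without it the value was 52.1 CPM.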

How the results depend on the processing

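Of 298 refits of a member's log2 fold, 262 kept their direction and their side of the threshold, 19 lost a call, 5 gained one and 12 changed sign. None of the 12 was a call. For RPE-marker spots, Mlana ranged from -0.049 to 0.65 with a frame left out, and Slc24a5 was -0.0037 after thinning. For fibrous spots Slc24a5 was -0.13 with no filter on low counts, -0.18 after thinning and -0.64 with fibrous spots low in retina markers. Between the coat classes, with no filter, Tyrp1 was 0.37, Dct 0.011 and Slc24a5 0.23, and with a frame left out Tyrp1 ranged from -0.59 to 0.19 and Slc24a5 from -0.68 to 0.052. Between the neural classes Slc24a5 was -0.21 after thinning and -0.0012 to 0.30 with a frame left out. The calls lost without the replicate block were those of Tyrp1, Dct, Pmel and Oca2 for RPE-marker spots, Dct for fibrous spots, and Oca2 between the neural classes (log2 fold 0.99, adjusted p = 0.436, edgeR). Each of these blocks is a frame, and the block changed no other call. Between the neural classes Pmel passed in 4 of 10 alternatives, and Oca2 and Mlana could not be tested without frame 2 or 3. Between the coat classes, with at least 2 RPE-marker UMIs a spot, Dct (adjusted p = 0.0202) and Pmel (0.0253) passed, and Oca2 passed with no filter (0.0193, edgeR). Tyr had no adjusted p from DESeq2 for RPE-marker spots.

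Counts of genes over the whole table moved more than the members. For RPE-marker spots, genes higher (283) and lower (350) were 171 and 158 by DESeq2, 122 and 128 after thinning, 156 and 192 without Rgr, and 140 to 281 and 166 to 370 with a frame left out. For fibrous spots, genes higher (275) and lower (278) were 182 and 609 with no filter, 75 and 40 after thinning and 103 and 82 without RPE-marker spots. DESeq2 gave 135 lower, and leaving out a frame gave 171 to 254 lower. Between the coat classes, genes higher (4) and lower (15) were 63 and 4 with no filter, 39 and 31 with at least 2 RPE-marker UMIs, 49 and 27 with fibrous spots low in retina markers, and 4 to 7 and 17 to 23 with a frame left out. There were 13 higher without Rgr, 9 lower after thinning and 4 lower with at least 6 fibrous UMIs. Between the neural classes, genes higher (989) and lower (1123) were 323 and 350 after thinning, and 1787 lower with no filter. The cause of these shifts was not tested.

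Thinning lowered the mean shares over frames. In RPE-marker spots they became 6.22% for Pmel, 2.42% for Mlana, 0.251% for Slc45a2, 3.86% for Slc24a5, 3.05% for Gpnmb and 0.599% for Mitf. In neural spots they became 5.88% for Tyrp1, 10.9% for Dct, 1.55% for Pmel, 1.12% for Mlana, 4.68% for Slc24a5 and 0.938% for Gpnmb. Depth limits Slc45a2, Mitf and Tyr, with 19, 65 and 88 UMIs in all.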

Other observations

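Some member UMIs came in numbers from 1 spot. In frame 1, a spot of 69 UMIs in no class held 15 Pmel UMIs of the frame's 128. In frame 4, a spot of 114 UMIs in no class held 5 of the frame's 48 Mlana UMIs, and an inner-type neural spot of 2503 UMIs held 9 of its 45 Pmel UMIs. In frame 3, an RPE-marker spot of 6494 UMIs held 81 Dct UMIs. In frame 1, an RPE-marker spot of 143 UMIs held 6 of the frame's 73 Oca2 UMIs.

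Only 8 of the 234 spots with 10 or more member UMIs were neural spots without an RPE-marker UMI. They held 141 member UMIs, of which 38 were Oca2, 29 of these in the spot described above.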
